A study of Mus musculus with 32 samples.

Results

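The 5 NF-κB subunit genes (Nfkb1, Rela, Rel, Nfkb2 and Relb) and 5 genes grouped as inhibitors were followed in bone marrow-derived macrophages (BMDMs) after induced loss of Trex1. The inhibitor group held Nfkbia, Nfkbib, Nfkbie, Nfkbiz and Tnfaip3. The name is loose for Nfkbiz, whose product also helps a set of target genes. The members were chosen by name, as the rows of the count table whose Ensembl identifier maps to these 10 mouse symbols. All 10 were present among 54281 gene identifiers, and all 10 were among the 15257 genes that passed the filter on low counts. RNA came from BMDMs of Trex1 FL/FL mice, in which both Trex1 alleles are flanked by loxP sites, and of Trex1 WT/FL mice, which keep a wild type allele. The cells of all groups, controls included, carried Cre-ERT2 at the R26 locus, a Cre recombinase that enters the nucleus when 4-hydroxytamoxifen (4-OHT) is bound. Cells of each genotype were left untreated or were given 2 µg/ml 4-OHT for 22 h, and were taken on day 1, 2, 3 or 4 after this exposure, which gave 16 groups of 2 libraries, 32 in all. TREX1 is the main exonuclease of the cytosol for DNA, and the comparison asked what follows when it is lost.

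These groups have limits as a model. 4-OHT-treated Trex1 WT/FL cells are not wild type, since Cre can remove their floxed allele. Cre was available in every cell, and the cells were grown from marrow in medium with L929 supernatant, so that they are cultured macrophages and not macrophages of a tissue. The labels give neither the age of the mice nor the animal, culture or batch of a library, nor a replicate number. The p-values below therefore measure only the spread between the 2 libraries of a group, which may be technical, and "replicate 1" and "replicate 2" are only names given in the order of the sample records.

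NF-κB is a family of transcription factors that act as pairs of subunits. In resting cells the pairs are held in the cytosol by IκB proteins. In the canonical arm, signals from receptors such as Toll-like or TNF receptors activate the IKK kinase complex, IκB is degraded, and pairs that hold RELA or REL with the p50 product of Nfkb1 enter the nucleus. In the noncanonical arm, the precursor made from Nfkb2 is processed and pairs with RELB. Several inhibitors and subunits are themselves target genes, so that the pathway sets its own brakes. In macrophages it drives cytokine and chemokine genes, and the DNA sensing pathway of cGAS and STING can feed into it.

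In the GRCm39 genome with the GENCODE vM39 annotation, the subunit genes lie at chr3:135290264-135397742 on the minus strand (Nfkb1, ENSMUSG00000028163), chr19:5687493-5698161 on the plus strand (Rela, ENSMUSG00000024927), chr11:23686847-23721264 on the minus strand (Rel, ENSMUSG00000020275), chr19:46292759-46303812 on the plus strand (Nfkb2, ENSMUSG00000025225) and chr7:19339017-19363425 on the minus strand (Relb, ENSMUSG00000002983). The inhibitor genes lie at chr12:55535332-55539432, minus (Nfkbia, ENSMUSG00000021025), chr7:28457486-28466937, minus (Nfkbib, ENSMUSG00000030595), chr17:45866585-45874661, plus (Nfkbie, ENSMUSG00000023947), chr16:55631738-55659262, minus (Nfkbiz, ENSMUSG00000035356), and chr10:18874201-18891405, minus (Tnfaip3, ENSMUSG00000019850).

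The κB consensus, the motif that NF-κB pairs bind, was searched on both strands from 250 bases before to 50 bases after the start site of each gene's reference transcript in the same annotation. It was found in 4 of the 10 members, Relb, Nfkbia, Nfkbie and Tnfaip3, and in 1060 of 21757 windows of the same length around protein-coding start sites (4.87%). The 4 stretches with a match before the start site are shown because they tell the members apart by a feature that the choice of members did not use. Capitals mark the match, and each is written 5′ to 3′ on the strand of its gene.
Relb, chr7:19363441-19363470, minus strand: gtgagcagcgGGGGTTTTCCcattcccttt
Nfkbia, chr12:55539442-55539471, minus strand: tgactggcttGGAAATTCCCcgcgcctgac
Nfkbie, chr17:45866510-45866539, plus strand: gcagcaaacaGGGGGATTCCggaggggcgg
Tnfaip3, chr10:18891264-18891293, minus strand: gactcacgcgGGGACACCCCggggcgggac

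Counted with the base before the start site as -1, these matches begin at -37 in Relb, -29 in Nfkbia, -86 in Nfkbie and -97 in Tnfaip3. Relb and Tnfaip3 each held another match just inside the transcript, at 36 and 16. The Relb and Nfkbie stretches lie before the first base annotated for the gene. The Nfkbia stretch also lies before the gene, within an intron of the long noncoding gene Gm36634 on the other strand. The Tnfaip3 stretch lies within an intron of a longer Tnfaip3 transcript, and its end overlaps an exon of the opposite-strand noncoding gene Gm67161. A match is a description of letters and not a site of binding, and no match in the other 6 windows says only that these letters are not there.

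Total counts ranged from 35120505 to 63760884 per library with a median of 44841991, and the lowest count of any member in any library was 816 (Nfkbiz). Trex1 itself had 0 to 14 counts in the 8 libraries of 4-OHT-treated FL/FL cells, against 758 to 3622 in 4-OHT-treated WT/FL, 1811 to 5746 in untreated FL/FL and 1174 to 6553 in untreated WT/FL. This sets the 4-OHT-treated FL/FL libraries apart from all others, as labelled. The other 3 arms overlapped, so Trex1 does not check the labels among them, nor the day of any library. The 8 macrophage markers (Adgre1, Csf1r, Cd68, Itgam, Lyz2, Mertk, Fcgr1 and Cd14) summed to between 15300 and 48700 CPM (counts scaled to a common library total) in every library. This sum is weighted to Lyz2, which had a median of 19000 CPM over all libraries, beside a median sum of 31300. The lists for other cells stayed low: 0.961 to 5.72 CPM for neutrophils and progenitors, 0.437 to 2.47 for dendritic cells, 0 to 0.198 for mast cells and basophils and 0.0871 to 2.27 for fibroblasts. The T cell list reached 52.9 CPM through Cd4 alone, while Cd3e, Cd3g and Cd3d never exceeded 0.0908. The B cell list reached 6.58 CPM through Cd79b. No pair of libraries was alike within sampling noise. The pair of untreated FL/FL cells on day 1 differed most (chi-square per degree of freedom 47, against 8.55 to 19.5 in the other 15 pairs), and this pair touches Nfkb2 below.

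All 10 genes were expressed in every library, with Nfkbia far above the rest. Compared per length, as CPM per kilobase of merged exons (RPKM), the mean over 32 libraries was 76.0 ± 7.44 (SD) for Nfkbia, which encodes IκBα, the inhibitor that NF-κB itself induces. Rela followed with 31.0 ± 6.66 RPKM. These 2 were each above the next gene in the order in all 32 libraries.

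The middle of the order did not separate. Nfkb2 had a mean of 17.6 ± 6.10 RPKM, Nfkb1 15.2 ± 1.04 and Relb 13.2 ± 5.36, and each exceeded the next in only 20, 16 and 15 of 32 libraries. Nfkbib followed with 12.2 ± 2.13 RPKM, above Nfkbie (12.1 ± 3.61) in 20 of 32. Nfkbie was above Nfkbiz (7.64 ± 3.37) in 31 of 32 libraries. Nfkbiz exceeded Rel (6.27 ± 0.817) in 21, and Rel exceeded Tnfaip3 (5.34 ± 1.55) in 25. The place of Nfkb1 depended on the length used: with the longest transcript in place of all merged exons its mean was 40.7 ± 2.77 RPKM and it stood second.

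**Figure D1:**
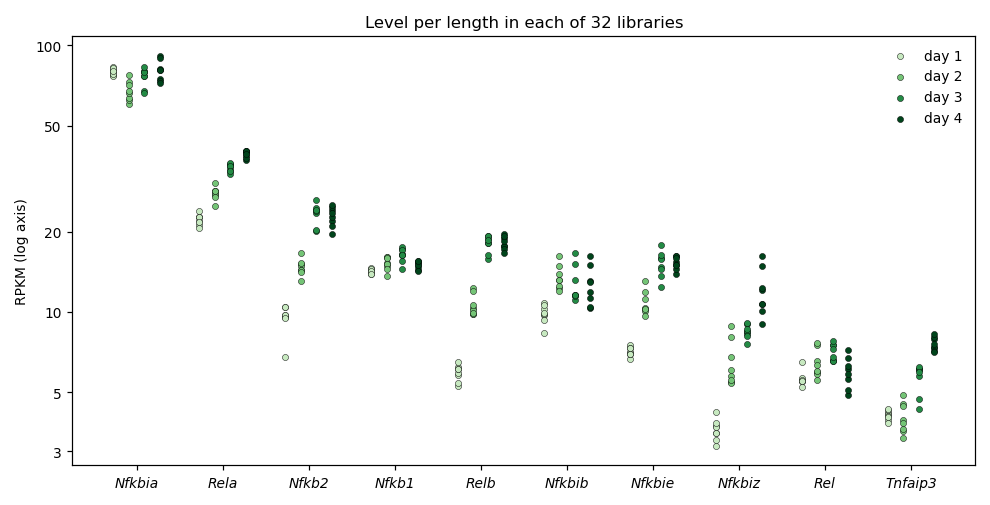
Level of each gene per length (RPKM, log axis) in each of the 32 libraries, in the order of the mean and coloured by day; every point is 1 library. Nfkbia lies between 60.3 and 91.3 RPKM, above every other gene in all libraries, while Nfkb2, Nfkb1, Relb, Nfkbib and Nfkbie overlap and Relb, Nfkb2, Nfkbie and Nfkbiz climb from day 1 to later days.

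For 6 of the 10 genes (Nfkb2, Rela, Relb, Nfkbie, Nfkbiz and Tnfaip3) the largest step between neighbouring days exceeded the largest difference between genotypes or treatments. Averaged over the 4 arms, an arm being 1 genotype with or without 4-OHT, 8 members rose and 1 fell from day 1 to day 2, 9 rose from day 2 to day 3, and from day 3 to day 4 3 rose and 2 fell. These counts stand against a high background, since 67.3%, 66.5% and 41.4% of all tested genes were called in the same 3 steps. A gene is called here at a Benjamini-Hochberg adjusted p below 0.05 over all tested genes in edgeR's quasi-likelihood test. A step is a difference of normalized levels between days, and with bulk RNA fewer cells that express a gene and less of its RNA per cell cannot be told apart.

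Among the subunits, the 2 genes of the noncanonical arm rose most. Relb, the partner of the Nfkb2 product, had a lowest, median and highest value over the 8 libraries of a day of 26.8, 30.5 and 32.9 CPM on day 1, and 80.2, 93.5 and 98.0 CPM on day 3. No day 1 library overlapped a day 3 library, and the steps were 0.85 ± 0.0468 (log2, SE, adjusted p = 9.57e-15) and 0.76 ± 0.0457 (6.25e-14), with no call from day 3 to day 4 (0.01 ± 0.0450). Nfkb2, the precursor gene, had 53.4, 76.2 and 82.0 CPM on day 1 and 159, 190 and 207 on day 3, with steps of 0.63 ± 0.0513 and 0.67 ± 0.0509.

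The subunits of the canonical arm moved less. Rela, the main activating subunit, rose in all 3 steps, from 67.4, 72.9 and 78.1 CPM on day 1 to 122, 128 and 132 CPM on day 4, by 0.33 ± 0.0285, 0.32 ± 0.0283 and 0.16 ± 0.0282. Averaged over the 4 arms, Nfkb1 and Rel rose to day 3 and fell after it. In 4-OHT-treated FL/FL cells alone, the group means did not rise from day 2 to day 3. They were 205 and 193 CPM for Nfkb1, and 58.9 and 58.3 CPM for Rel. The steps of Nfkb1 were 0.09 ± 0.0254, 0.11 ± 0.0254 and -0.13 ± 0.0254, within a range over all libraries of 175 to 225 CPM. Rel, the c-Rel subunit of macrophages and lymphocytes, stepped by 0.19 ± 0.0344, 0.14 ± 0.0344 and -0.26 ± 0.0345.

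Each inhibitor had its own course. Nfkbia was the exception among the 10 in that it fell from day 1 (149, 155 and 160 CPM) to day 2 (117, 129 and 150), by -0.24 ± 0.0378 (adjusted p = 3.12e-06), and rose again by 0.17 ± 0.0379. This second step is a mean over the arms, and in 4-OHT-treated FL/FL cells the group means were 134 CPM on day 2 and 129 on day 3. Nfkbie, which encodes IκBε, rose from 27.9, 29.5 and 31.6 CPM on day 1 to 52.1, 64.2 and 74.9 on day 3, with steps of 0.61 ± 0.0490 and 0.48 ± 0.0482. Nfkbib, which encodes IκBβ, rose only in the first step, by 0.45 ± 0.0464.

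Nfkbiz and Tnfaip3 were still rising at the end. Nfkbiz encodes IκBζ, a nuclear IκB that helps a set of secondary target genes, and its highest library was 5.11 times its lowest (17.7 to 90.7 CPM), the largest such ratio of the 10. Its 3 steps were 0.82 ± 0.0505, 0.40 ± 0.0492 and 0.48 ± 0.0486. Tnfaip3 encodes A20, a ubiquitin-editing enzyme that ends NF-κB signals. It was not called in the first step (-0.03 ± 0.0437) and, averaged over the 4 arms, rose by 0.49 ± 0.0437 and 0.43 ± 0.0431 in the next. In 4-OHT-treated FL/FL cells alone, neither gene moved much from day 2 to day 3. The group means were 45.3 and 44.1 CPM for Tnfaip3, and 47.4 and 48.4 CPM for Nfkbiz.

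The summed macrophage markers also moved with day, from 15300 to 17300 CPM on day 1 to 26600 to 34100 on day 2, 38900 to 48700 on day 3 and 29300 to 33200 on day 4, and the T cell list, almost all of it Cd4, went from at most 0.255 CPM on day 1 to between 29.0 and 52.9 on day 3. Their part in the course of the 10 genes was not tested. Of the steps, the call for Nfkb1 from day 1 to day 2 was lost with upper-quartile factors (0.04, adjusted p = 0.15), and Nfkbia, at 0.08 with an edgeR adjusted p of 0.0901 from day 3 to day 4, was called with RLE factors (0.0374) and by DESeq2 (0.0358).

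**Figure D2:**
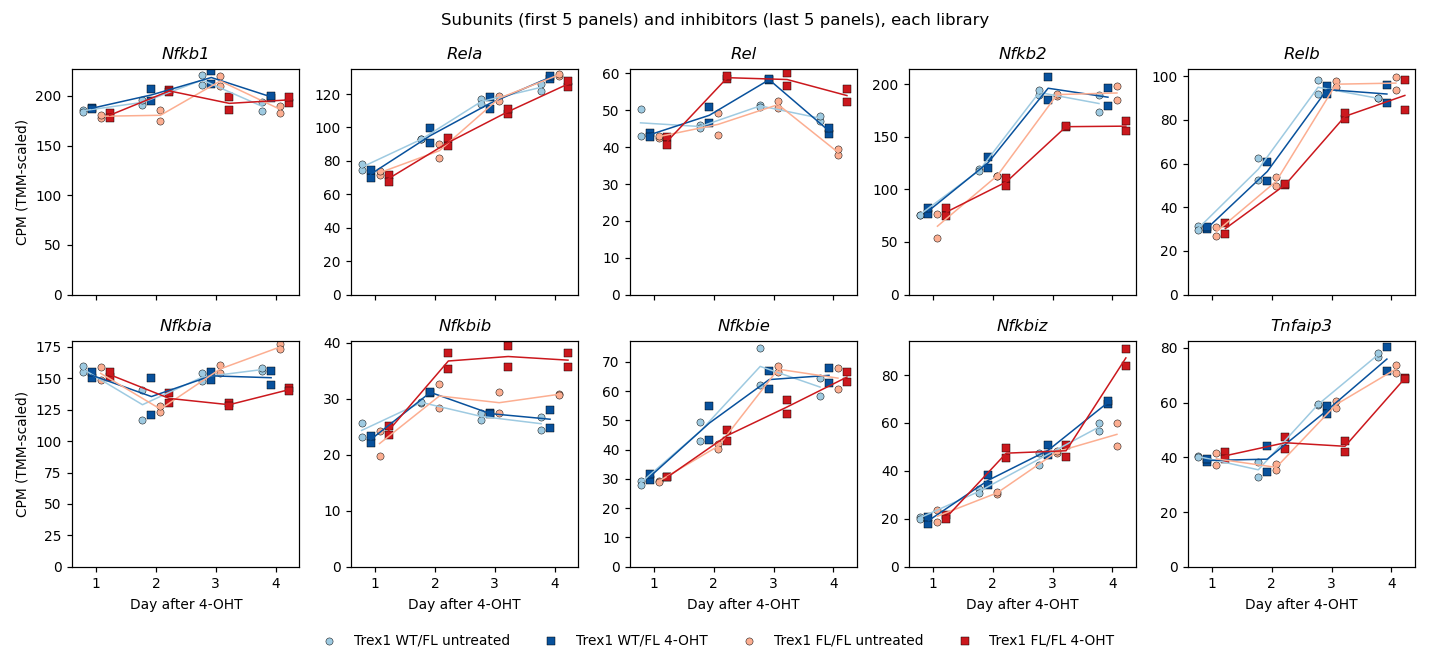
CPM of each member against day after 4-OHT in every library, in the 4 arms; points are libraries, lines join the group means, the upper row holds the subunits and the lower row the inhibitors. Relb, Nfkb2, Nfkbie and Nfkbiz climb in all arms, while 4-OHT-treated FL/FL cells stand above the other arms in Nfkbib from day 2 and in Nfkbiz on days 2 and 4.

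The likeness of the courses was described by Pearson's r of log2 CPM over the 16 group means, which share the days and are no independent samples, so no p is given. Nfkb2 and Relb (r = 0.99), Relb and Nfkbie (0.99), Nfkb2 and Nfkbie (0.98), and Rela and Relb (0.98) ran most closely together. Nfkbia ran apart, with r between -0.54 (Nfkbib) and 0.53 (Tnfaip3) to the other members. Among 10760 genes with a mean log2 CPM over 1, genes among the 3 most like each member were Pla2g15 (0.998), Tmem176b (0.997) and Tmem176a (0.997) for Relb, Ttyh3 (0.995) and Prxl2b for Nfkb2, Ccl6 (0.993), Pld3 and Zfp36l1 for Rela, Rnf2 (0.993), Relb and Slc7a7 for Nfkbie, and Etv3 (0.993), Cmtm3 and Xylt2 for Nfkbiz. Those most like Tnfaip3 were Ptprv (0.974), Zgpat and Rhbdd3, and those most like Nfkbib were Pttg1 (0.951), Keap1 and Mfsd12. The closest genes to Rel (Aff1, 0.938, then Trip12 and Resf1), Nfkbia (Baiap2, 0.892, then Dusp5 and Zfp706) and Nfkb1 (Zfp696, 0.889, then Jarid2 and Ctsc) were less close.

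The main comparison set 4-OHT-treated Trex1 FL/FL against 4-OHT-treated WT/FL cells on each day. These are cells that lost Trex1 RNA against cells that keep a wild type allele. The protein went later than the RNA. By the paper's Western blots, much TREX1 remained on day 2, almost none on day 3, and none was detected on day 4. Differences in the 10 genes were small, none above 1.40-fold or below 0.77-fold, and they changed with day. On day 1 no member was called, where 0.0197% of all tested genes were called by edgeR, and none had an unadjusted p below 0.05 or was called by DESeq2. On day 2 Nfkbiz and Rel were higher. On day 3 Nfkbib was higher and Tnfaip3, Nfkb2, Nfkbia and Nfkb1 were lower. On day 4 Nfkbib, Nfkbiz and Rel were higher. The calls were 2, 5 and 3 of 10, with 12.6%, 19.0% and 30.2% of all tested genes called on these days. The share of members called was thus at the background on day 4 and near it on day 2. The day 2 count was 1 without FL/FL replicate 1 or 2 or WT/FL replicate 2, and the day 3 count was 2 without FL/FL replicate 1 or 2 or WT/FL replicate 1. The median log2 difference of the 10 was -0.01, 0.01, -0.19 and -0.02 on days 1 to 4, against -0.0106, -0.00965, -0.00728 and -0.0366 over all tested genes.

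The study's methods set an adjusted p under 0.01 together with a log2 change of more than 1.5 in size. At these thresholds no member was called on any day, by edgeR or by DESeq2, where 0.0131%, 0.583%, 0.872% and 2.98% of all genes were on days 1 to 4.

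Of the subunits, Rel changed most clearly. On day 2 it had 58.5 and 59.2 CPM in 4-OHT-treated FL/FL and 50.8 and 46.5 CPM in 4-OHT-treated WT/FL libraries, and on day 4 it had 52.2 and 55.8 against 43.6 and 45.2. Both FL/FL libraries were above both WT/FL libraries on these days. Here and below, such a separation of 2 libraries from 2 only describes the values. An exact permutation test of it cannot go below 0.33. The difference was 0.28 ± 0.0687 on the log2 scale on day 2 (1.21-fold, edgeR adjusted p = 0.00593) and 0.28 ± 0.0691 on day 4 (1.22-fold, 0.00217).

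Between these days Rel was not called. On day 3 it had 60.2 and 56.5 CPM in FL/FL and 58.2 and 58.4 CPM in WT/FL libraries, a difference of 0 ± 0.0681. The WT/FL libraries lay between the FL/FL libraries on that day. The day 4 call held when any of the 4 libraries was left out (0.24 to 0.33), whereas the day 2 call was lost without WT/FL replicate 2 (0.21) or FL/FL replicate 2 (0.27).

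Nfkb1 and Nfkb2 were lower on day 3. Nfkb1 had 186 and 199 CPM in FL/FL and 225 and 212 CPM in WT/FL libraries, a difference of -0.18 ± 0.0507 (adjusted p = 0.0107). Nfkb2 had 159 and 160 CPM in FL/FL and 207 and 185 in WT/FL, a difference of -0.30 ± 0.101 (adjusted p = 0.0393). In neither gene did the groups overlap. Neither call was firm: that of Nfkb1 was lost without replicate 1 of FL/FL (-0.13) or of WT/FL (-0.13) and with no filter on low counts (adjusted p = 0.0763), and that of Nfkb2 without replicate 1 of WT/FL (-0.22) or either FL/FL library (-0.29 and -0.31).

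Nfkb2 was lower by a like amount on the neighbouring days, without a call. On day 2 it had 103 and 111 CPM in FL/FL against 120 and 131 in WT/FL (-0.23 ± 0.102, adjusted p = 0.167), and on day 4 it had 165 and 155 against 196 and 179 (-0.23 ± 0.101, 0.0903). The groups did not overlap on either day, and a fit of the 16 4-OHT-treated libraries alone called both (adjusted p = 0.0291 and 0.0123). A gene on the opposite strand, 4833438C02Rik, overlaps exons of Nfkb2 and had 4.66 to 21.5 CPM. It was lower in FL/FL too on day 3 (-0.52 ± 0.148, adjusted p = 0.0128), and its part in the counts of Nfkb2 was not tested, since the sources used here do not state whether counting used strand.

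Rela and Relb were not called on any day. Rela differed by -0.05, -0.06, -0.06 and -0.04 on days 1 to 4, with SEs of 0.0564 to 0.0569. Relb differed by -0.17 ± 0.0922 on day 2, by -0.20 ± 0.0901 on day 3 (80.2 and 83.0 against 95.7 and 92.0 CPM, adjusted p = 0.131) and by -0.01 ± 0.0902 on day 4. Its day 3 groups did not overlap, and a fit of the 4 libraries of that day alone called it (adjusted p = 0.0305).

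Of the inhibitors, Nfkbib was called on 2 days in a row. On day 3 it had 39.4 and 35.7 CPM in FL/FL and 27.5 and 27.2 CPM in WT/FL libraries, and on day 4 it had 38.2 and 35.6 against 28.0 and 24.7. Every FL/FL library was above every WT/FL library on both days. The differences were 0.46 ± 0.0923 (1.37-fold, adjusted p = 0.000621) and 0.48 ± 0.0928 (1.40-fold, 0.000177), and both calls held without any 1 of their libraries, at 0.39 to 0.53 and 0.40 to 0.58.

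On day 2 Nfkbib already stood at 35.3 and 38.2 against 31.1 and 31.2 CPM, without a call (0.24 ± 0.0922, adjusted p = 0.100). Sirt2 overlaps it on the opposite strand by a short stretch and had 56.6 to 147 CPM. The differences of Sirt2 on days 3 and 4 were of the other sign, -0.08 ± 0.0627 and -0.17 ± 0.0631. Ccer2 and Gm71901 also overlap Nfkbib on the opposite strand. Ccer2 had at most 0.0585 CPM, and Gm71901 was not among the counted genes. The part of these genes in the counts of Nfkbib was not tested.

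Nfkbiz was called on the same days as Rel. On day 2 it had 49.6 and 45.2 CPM in FL/FL and 38.1 and 34.1 CPM in WT/FL libraries (0.40 ± 0.0984, 1.32-fold, adjusted p = 0.0063). On day 3 it had 51.0 and 45.8 against 46.5 and 50.7, which overlapped (-0.01 ± 0.0973). On day 4 it had 90.7 and 83.6 against 67.9 and 69.2 (0.35 ± 0.0958, 1.27-fold, 0.00669). The groups were apart on days 2 and 4 only. The day 2 call was lost without WT/FL replicate 2 (0.32) or FL/FL replicate 1 (0.33), and the day 4 call without WT/FL replicate 1 (0.33) or FL/FL replicate 1 (0.28).

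Tnfaip3 and Nfkbia were lower on day 3. Tnfaip3 had 46.0 and 42.1 CPM in FL/FL and 58.7 and 55.7 CPM in WT/FL libraries, a difference of -0.38 ± 0.0867 (0.77-fold, adjusted p = 0.00211) that lost its call only without FL/FL replicate 2 (-0.31). Nfkbia had 130 and 128 CPM in FL/FL and 155 and 149 in WT/FL, a difference of -0.24 ± 0.0758 (0.85-fold, adjusted p = 0.0258). The groups of both genes were apart, but the call of Nfkbia was lost when any 1 of its 4 libraries was left out (-0.26 to -0.21).

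The other days of these 2 genes gave no call. Tnfaip3 was at 43.1 and 47.6 against 34.7 and 44.0 CPM on day 2, where the groups overlapped (0.20 ± 0.0877), and without WT/FL replicate 2 it was called higher (0.38, adjusted p = 0.00767). On day 4 it differed by -0.14 ± 0.0856. Nfkbie was lower on day 3 without a call, at 57.1 and 52.1 against 67.0 and 60.9 CPM (-0.23 ± 0.0956, adjusted p = 0.0994). The groups did not overlap, and the fit of the 4 libraries of that day called it (0.0441).

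On day 3, when 4 members were lower, the summed macrophage markers were also lower, at 38900 to 39300 CPM in 4-OHT-treated FL/FL and 45700 to 48100 CPM in 4-OHT-treated WT/FL libraries. On day 2, when the called members Rel and Nfkbiz were higher, the sums were lower in FL/FL too, at 26600 to 28600 against 32000 to 34100 CPM. On day 4 they overlapped, at 29400 to 31400 and 30900 to 31700. Since the sum is weighted to Lyz2, it does not tell whether the other markers moved alike, and differences of single markers are not given here. The part of these differences in the members' values was not tested.

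**Figure D3:**
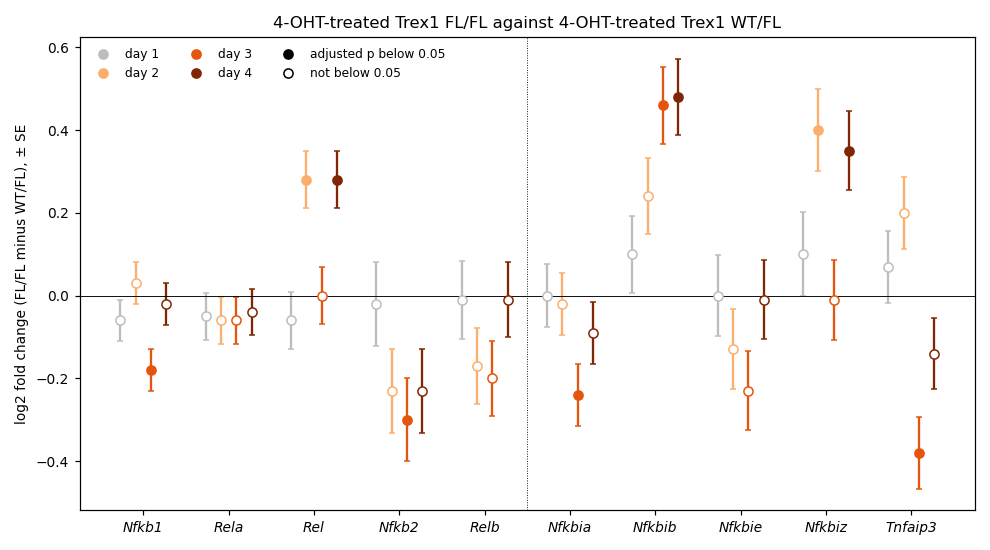
Log2 fold change of each member in 4-OHT-treated Trex1 FL/FL against 4-OHT-treated WT/FL cells on days 1 to 4 with its SE; filled points have an edgeR adjusted p below 0.05, and the dotted line parts subunits from inhibitors. Nfkbib is called higher on days 3 and 4, Rel and Nfkbiz on days 2 and 4, and Tnfaip3, Nfkb2, Nfkbia and Nfkb1 are called lower on day 3, all within 0.5 of 0.

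The same 10 genes were then compared between 4-OHT-treated and untreated cells within each genotype. In WT/FL cells no member was called on any day by edgeR or by DESeq2, where 0.00655%, 0.0983%, 0.537% and 0.472% of all tested genes were called on days 1 to 4. At an unadjusted p below 0.05 edgeR gave 0, 0, 1 and 1 of the 10, which were Rel on day 3 (0.19 ± 0.0684, adjusted p = 0.357) and Nfkbiz on day 4 (0.23 ± 0.0962, 0.545).

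In FL/FL cells, 0, 5, 5 and 4 members were called on days 1 to 4, with 0.0131%, 16.4%, 23.5% and 29.6% of all tested genes. These cells were read against their own genotype without 4-OHT. The comparison shares the 4-OHT-treated FL/FL libraries with the main one, so the values are given beside it and not as separate support. The 0 on day 1 came with 1 member at an unadjusted p below 0.05 (Nfkb2) and 0 by DESeq2.

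On day 2 all 5 called members were higher after 4-OHT. Nfkbiz had 49.6 and 45.2 CPM with 4-OHT and 30.4 and 31.3 CPM without (0.62 ± 0.0992, 1.54-fold, adjusted p = 3.65e-05), and Rel had 58.5 and 59.2 against 49.2 and 43.2 (0.35 ± 0.0689, 0.000463). Tnfaip3 (0.32 ± 0.0881), Nfkbib (0.27 ± 0.0924) and Nfkb1 (0.18 ± 0.0508) were higher by less. The calls of Nfkbiz and Rel held without any 1 library, while the other 3 each lost theirs without at least 1. The count was 2 without 4-OHT-treated replicate 2, and 3 without 4-OHT-treated replicate 1 or untreated replicate 2. With no filter on low counts Nfkb1 (adjusted p = 0.100) and Nfkbib (0.0644) were not called.

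On day 3, 3 inhibitors and Nfkb1 were lower after 4-OHT and Nfkbib was higher. Tnfaip3 had 46.0 and 42.1 CPM with 4-OHT and 60.6 and 58.0 CPM without (-0.43 ± 0.0872, adjusted p = 0.000448), and this call held without any 1 library. Nfkbie (-0.31 ± 0.0960), Nfkbia (-0.29 ± 0.0759) and Nfkb1 (-0.16 ± 0.0508) were lower by less, and Nfkbib differed by 0.36 ± 0.0928. Each of these last 4 lost its call without at least 1 library, and the count was 2 without untreated replicate 2 and 3 without any 1 of the other libraries. Relb (-0.24 ± 0.0904, adjusted p = 0.0579) and Nfkb2 (-0.26 ± 0.101, 0.0732) missed the threshold, and both were called with a minimum count of 50 (0.0373 and 0.0439). Rel missed it in the other direction (0.18 ± 0.0689, 0.0625), and was called higher with RLE factors (0.0451), upper-quartile factors (0.0396) and DESeq2 (0.0459).

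On day 4 Nfkbiz had 90.7 and 83.6 CPM with 4-OHT and 50.5 and 60.0 CPM without (0.66 ± 0.0969, 1.58-fold, adjusted p = 5.11e-06). Rel had 52.2 and 55.8 against 37.8 and 39.4 (0.48 ± 0.0699, 3.32e-06). Nfkbia was lower, at 142 and 140 against 177 and 173 (-0.31 ± 0.0759, 0.00217). The groups of all 3 genes were apart, and these calls held without any 1 library. Nfkbib was higher by 0.26 ± 0.0929 (adjusted p = 0.0364), a call that each left-out library ended, as did upper-quartile factors (0.0625). Nfkb2 was lower but missed the threshold (-0.26 ± 0.101, edgeR adjusted p = 0.0576). It was called lower with upper-quartile factors (0.0334), a minimum count of 50 (0.0397), no filter on low counts (0.00159) and DESeq2 (0.0357).

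Without 4-OHT the genotypes differed little on days 1 to 3 and more on day 4. Between untreated FL/FL and untreated WT/FL cells no member was called on days 1 to 3 by edgeR or DESeq2, with 0%, 0.0197% and 0% of all genes called, and 1, 0 and 0 members had an unadjusted p below 0.05. On day 4, with 2.01% of all genes called, Rel was lower in FL/FL, at 37.8 and 39.4 against 47.2 and 48.5 CPM (-0.31 ± 0.0697, adjusted p = 0.028). This call was lost when any 1 of the 4 libraries was left out (-0.34 to -0.28). By edgeR, 3 members (Rel, Nfkbib and Nfkbia) had an unadjusted p below 0.05 on day 4. The difference of Nfkbib on that day was 0.27 ± 0.0934 without a call (30.9 and 30.7 against 26.7 and 24.4 CPM, adjusted p = 0.124). Untreated FL/FL cells thus stood above untreated WT/FL cells in this gene as well.

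Nfkb2 on day 1 rested on 1 library. Untreated FL/FL cells had 76.6 and 53.4 CPM, while the 6 other libraries of that day had 74.9 to 82.0. Without replicate 1 of the pair, which leaves the low library, Nfkb2 was called lower in untreated FL/FL than WT/FL (-0.51, adjusted p = 6.02e-05) and higher after 4-OHT in FL/FL (0.56, 1.44e-05). With both, the values were -0.22 ± 0.103 and 0.27 ± 0.103, and neither was called.

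The difference between the effects of 4-OHT in the genotypes was tested as an interaction. It was called for no member on days 1, 2 and 3, where 0.0131%, 6.39% and 8.94% of all genes were called, and for 2 on day 4, where 16.2% were. DESeq2 gave the same numbers of calls, and 0, 2 and 4 members had an unadjusted p below 0.05 on days 1 to 3. On day 4 the effect of 4-OHT on Rel was 0.48 ± 0.0699 in FL/FL and -0.11 ± 0.0689 in WT/FL cells, a difference of 0.59 ± 0.0981 (adjusted p = 5.6e-05). This held without any 1 library (0.55 to 0.64), and part of it lay in the untreated cells, where Rel was lower in FL/FL. The effect on Nfkbiz was 0.66 ± 0.0969 in FL/FL and 0.23 ± 0.0962 in WT/FL, a difference of 0.43 ± 0.136 (adjusted p = 0.0317) that lost its call without any 1 of 5 of the 8 libraries (0.30 to 0.44).

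On day 3 the interaction of Tnfaip3 was -0.38 ± 0.122 (adjusted p = 0.0513), just short of a call, and it was called with a minimum count of 50 (adjusted p = 0.0384). On day 2 that of Nfkbiz was 0.42 ± 0.140 (0.0759). For Nfkbib, called on days 3 and 4 in the main comparison, the interaction was 0.33 ± 0.131 on day 3 (adjusted p = 0.132) and 0.21 ± 0.132 on day 4 (0.329), so a difference between the effects of 4-OHT was not shown for it.

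**Figure D4:**
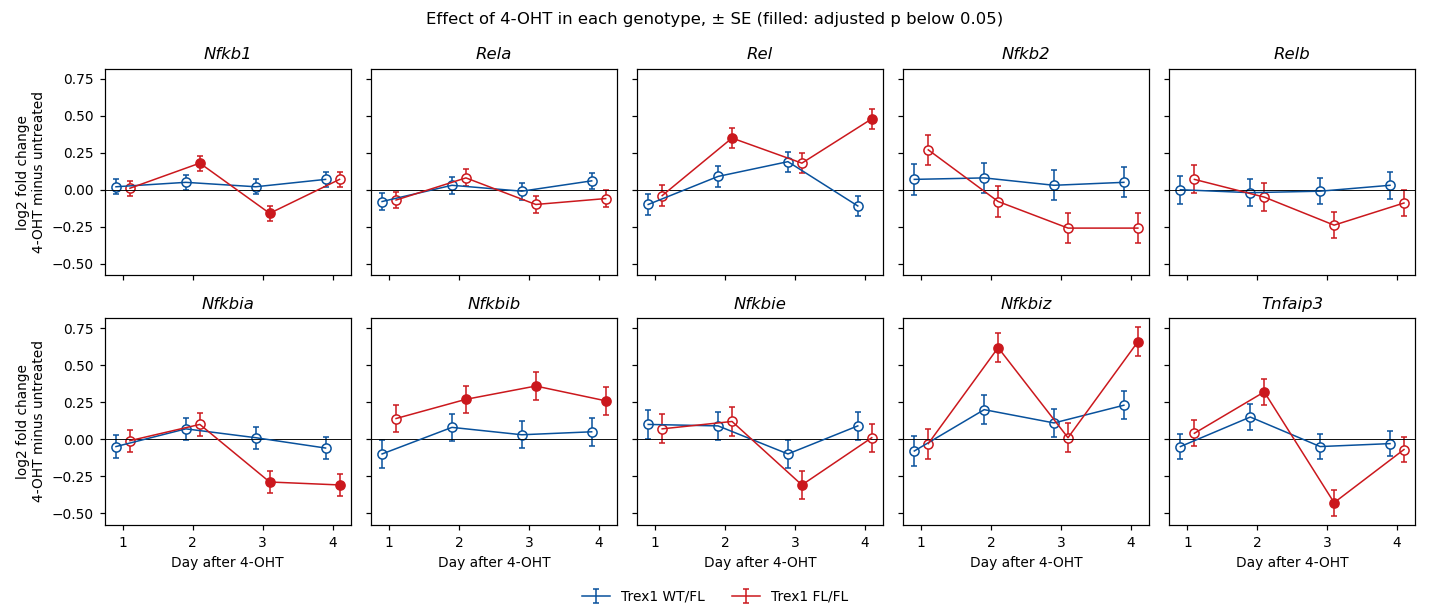
Log2 fold change of each member after 4-OHT against untreated cells on days 1 to 4, in Trex1 WT/FL (blue) and FL/FL (red), with SE; filled points have an edgeR adjusted p below 0.05. No WT/FL point is filled, while in FL/FL Nfkbiz reaches 0.62 on day 2 and 0.66 on day 4 and Tnfaip3 goes from 0.32 on day 2 to -0.43 on day 3.

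The turn between days was tested as a change of the main difference. From day 1 to day 2, with 5.31% of all genes called, the difference of Rel rose by 0.33 ± 0.0971 (adjusted p = 0.0399). The call was lost without any 1 of 7 of its 8 libraries (0.27 to 0.37). From day 2 to day 3, with 2.72% called, the difference of Tnfaip3 fell by 0.58 on the log2 scale (SE 0.123, adjusted p = 0.00876), from 0.20 to -0.38. The call was lost without replicate 1 of WT/FL on day 2 (-0.42), or replicate 2 of FL/FL on day 2 (-0.50) or on day 3 (-0.51). From day 3 to day 4, with 7.08% called, all 10 changes were above 0, from 0.02 to 0.35, and none was called by edgeR or DESeq2. Of these, 3 had an unadjusted p below 0.05, and the day 3 values enter all of them. For Nfkbiz the change was -0.40 ± 0.138 in the second step (adjusted p = 0.126) and 0.35 ± 0.137 in the last (0.136), and for Rel it was -0.28 ± 0.0968 (0.134) and 0.28 ± 0.0971 (0.08). A turn between days 2, 3 and 4 was thus not shown by this test for either gene in the main fit. With no filter on low counts, the second-step change of Nfkbiz was called (-0.39, edgeR adjusted p = 0.038). In the fit of the 16 4-OHT-treated libraries, the last-step change of Rel was called (0.29, edgeR adjusted p = 0.0464).

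Other genes of the pathway were taken from 7 lists with 81 genes, chosen for their place in the pathway, of which 80 were tested. Il12b was not tested, with at most 11 counts. In the main comparison 0, 25, 27 and 42 of the 80 were called on days 1 to 4, as 23 higher and 2 lower on day 2, 17 and 10 on day 3, and 29 and 13 on day 4, beside the 12.6%, 19.0% and 30.2% of all tested genes given above. The same shares are the background of each list below. The median log2 difference over the 80 was -0.01, 0.07, 0.03 and 0.09. Without WT/FL replicate 1 the day 3 count was 17.

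The largest differences were in the 29 inducible targets that were tested, of which 9, 7 and 14 were higher and 1, 4 and 5 lower on days 2, 3 and 4. Ccl4, a chemokine, had 64.4 and 58.2 CPM in 4-OHT-treated FL/FL and 12.9 and 17.7 CPM in 4-OHT-treated WT/FL libraries on day 4 (2.01 ± 0.203, adjusted p = 1.62e-07), after 1.84 ± 0.204 on day 2 and 1.42 ± 0.205 on day 3. Nos2, which encodes inducible nitric oxide synthase, was low but higher on these 3 days. It had 10.3 and 11.3 against 1.57 and 1.73 CPM on day 2 (2.71 ± 0.517), with 1.69 ± 0.514 on day 3. On day 4 it had only 1.72 and 2.09 against 0.203 and 0.303 CPM (2.92 ± 0.602), so its largest change lay at its lowest level. Ccrl2, a chemokine-binding receptor, was higher on day 2 (1.33 ± 0.179) and day 3 (1.05 ± 0.175). Ier3, an immediate early gene, went the other way, at 41.7 and 47.3 against 116 and 110 CPM on day 4 (-1.35 ± 0.0870, adjusted p = 1.89e-12).

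Of 8 upstream receptors, 5, 3 and 5 were higher and 1 was lower on each of days 2 to 4. Tlr3, a receptor for double-stranded RNA, had 69.7 and 77.2 against 24.5 and 28.9 CPM on day 4 (1.46 ± 0.0967), with 1.23 ± 0.0943 on day 2 and 0.87 ± 0.0941 on day 3. Tlr7, a receptor for single-stranded RNA, was higher by 0.41 ± 0.0737 on day 3 and 0.88 ± 0.0742 on day 4. Tlr9, a DNA receptor, was higher by 0.66 ± 0.135 on day 2, and Il1rap, a subunit of the IL-1 receptor, by 0.66 ± 0.114 on day 4. Tlr2, a receptor for bacterial lipoproteins, was lower on day 2 (-0.45 ± 0.0745) and day 3 (-0.37 ± 0.0742).

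In the canonical arm, 2, 2 and 4 of 16 genes were higher and 0, 1 and 3 lower on days 2 to 4. The share of this list called was near that of all tested genes on days 2 and 3 (12.6% and 19.0%). Myd88, the adaptor of most Toll-like receptors, was higher on these days (0.52 ± 0.0570, 0.26 ± 0.0568 and 0.55 ± 0.0571), and Ticam1, the adaptor of TLR3, on days 2 and 3 (0.22 ± 0.0715 and 0.25 ± 0.0704). Birc2, a ubiquitin ligase, was higher on day 4 (0.30 ± 0.0748). Ikbkg, the regulatory subunit of IKK, was lower on day 4, at 76.7 and 77.4 against 137 and 120 CPM (-0.74 ± 0.0805, adjusted p = 3.75e-08), and Tab2, an adaptor of the kinase TAK1, on day 3 (-0.17 ± 0.0513).

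In the noncanonical arm, 2, 1 and 1 of 6 genes were higher and 0, 1 and 1 lower. On day 4 the share of this list called was near the 30.2% of all tested genes. Cd40, a receptor that feeds this arm, had 28.5 and 30.9 against 10.1 and 11.3 CPM on day 2 (1.47 ± 0.216) and 24.6 and 23.0 against 5.99 and 9.53 CPM on day 4 (1.62 ± 0.221). Tnfrsf11a, the receptor RANK, was higher on day 2 (0.26 ± 0.0663), and Ltbr, the lymphotoxin receptor, on day 3 (0.24 ± 0.0735). Traf3, which restrains this arm, was lower on day 3 (-0.27 ± 0.0727) and day 4 (-0.36 ± 0.0731).

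Of 4 genes that link DNA sensing to NF-κB, 3, 1 and 2 were higher and none was lower. Cgas, the DNA sensor, was higher by 0.49 ± 0.102, 0.34 ± 0.106 and 0.92 ± 0.106 on days 2 to 4, Ikbke, an IKK-related kinase, by 0.31 ± 0.0603 on day 2 and 0.21 ± 0.0601 on day 4, and Tbk1, the kinase that STING recruits, by 0.17 ± 0.0517 on day 2.

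The regulators split. Of 14 ubiquitin and feedback regulators, 2, 3 and 3 were higher and 0, 2 and 2 lower on days 2 to 4. The share of this list called was near that of all tested genes on days 2 and 4 (12.6% and 30.2%). Rnf31 and Rbck1 encode 2 subunits of the complex that builds linear ubiquitin chains. Rnf31 was higher on all 3 days (0.69 ± 0.0878, 0.47 ± 0.0869 and 0.93 ± 0.0879), and Rbck1 on days 2 and 4 (0.22 ± 0.0560 and 0.36 ± 0.0561). Otulin, which cuts such chains, was higher on day 4 (0.31 ± 0.0615), and Otud7b, another deubiquitinase, on day 3 (0.49 ± 0.102), while N4bp1 was lower on day 3 (-0.23 ± 0.0614). Of the 3 other IκB genes, Nfkbid, which encodes a nuclear IκB, was lower on day 3 at 8.45 and 8.79 against 15.8 and 14.0 CPM (-0.79 ± 0.104, adjusted p = 2.88e-06) and on day 4 (-0.28 ± 0.103), and none was higher.

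**Figure D5:**
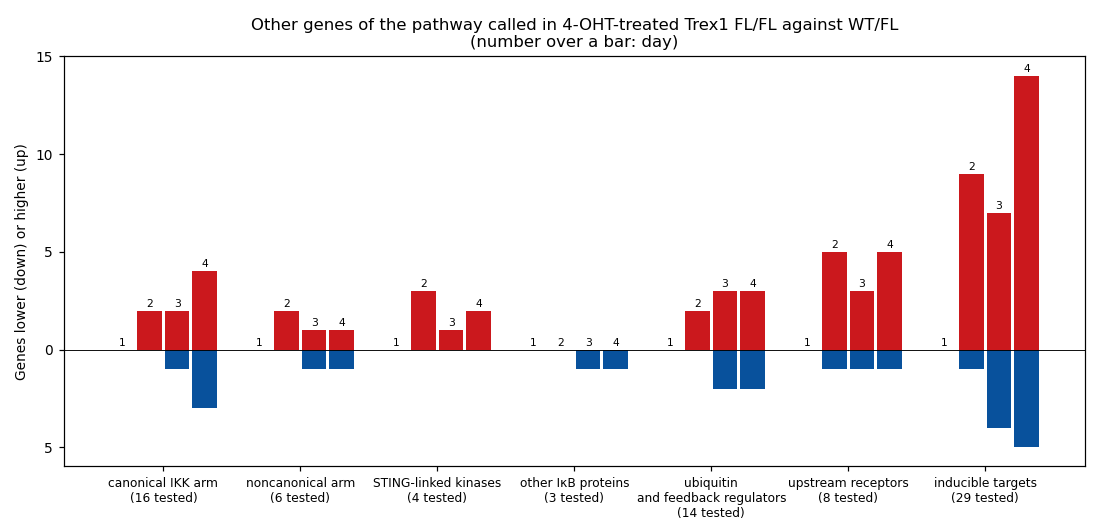
Number of genes of each pathway list called higher (red, up) or lower (blue, down) by edgeR in 4-OHT-treated Trex1 FL/FL against WT/FL cells; the number over each bar is the day, and the number tested is under each list. Inducible targets, the longest list with 29 genes tested, hold the most calls, with 9, 7 and 14 higher on days 2, 3 and 4. The share of genes called was larger among the 8 upstream receptors on each of these days.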

How the data were processed

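RNA of 32 BMDM libraries was sequenced by the authors, and reads were demultiplexed with JE. The authors quantified transcripts with Salmon and summed them to genes with tximport, and the submitters' processing notes also name FastQC 11.9, DESeq2 1.32 and GRCm39; the annotation release and the use of strand are not given in the sources used here. The values of the table, as deposited by the authors, are estimated counts of reads for every gene, not scaled to depth or length and already rounded to whole numbers. Each column was assigned from its name and the labels.

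Of 54281 identifiers, 51048 matched GENCODE vM39, which gave symbols and coordinates. For tests, edgeR 4.0.16 ran under R 4.3.3 (TMM factors, filter with a minimum count of 10, robust glmQLFit and glmQLFTest), in 1 fit of all 32 libraries with 1 coefficient per group, which left 16 residual degrees of freedom and a common biological coefficient of variation of 0.0912. The 26 contrasts were adjusted by Benjamini-Hochberg over the 15257 tested genes. With 2 libraries against 2, an exact permutation test cannot go below 0.33, so no single-gene permutation test is given. CPM use TMM-scaled totals, and log2 CPM a prior count of 2. SEs are the log2 fold change divided by the root of F. The tests were tried on simulated counts first, with genes changed on day 2 of the main comparison. Of 50 genes changed by 0.5 (log2), 28 were called in the right direction, and of 50 changed by 2.5, 50 were. Among the unchanged genes, 6 were called. The members differed by less than 0.5 in the main comparison, so the lack of a call does not show that a member was unchanged.

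Of their 31-base words, Relb shares 4.59%, Tnfaip3 2.51% and Nfkbie 1.34% with other genes, and the other members under 0.5%. All 10 members were named in every comparison; from each pathway list and day, at most 3 called genes with the largest change, and for each member the 3 most like genes, of which 1 is not reported here. The members were taken by name, but they, the lists and the tests were chosen with earlier results of these data known. The settings tried besides were DESeq2 1.42.0, factors by RLE or the upper quartile, no filter, a minimum count of 50, fits of fewer libraries, an adjusted p below 0.01 and leaving out each library. Promoter windows were read from the GRCm39 genome.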

Additional observations from a re-analysis of the deposited data

Results flagged for a closer look

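In 4 cases the effect in one set of libraries differed from that in another by the test of the difference itself. The effect of 4-OHT on Rel on day 4 differed between FL/FL and WT/FL cells by 0.59 (log2), and that on Nfkbiz by 0.43. The difference of Rel between 4-OHT-treated FL/FL and WT/FL cells was larger by 0.33 on day 2 than on day 1. The difference of Tnfaip3 changed by -0.58 from day 2 to day 3. The first held when any 1 library was left out, and the other 3 did not. With 2 libraries in each group, no search for single outlying samples was made.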

How the results depend on the processing

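No paired analysis was possible because the labels give no replicate number, animal or batch. No called value changed sign. In the main comparison, 14 member values without a call changed sign, in 43 cases over all settings; uncalled values of the other comparisons were not followed for sign. In the main comparison the number of members called was 4 on day 2 in a fit of the 16 4-OHT-treated libraries and 2 on day 3 at an adjusted p below 0.01, and leaving out 1 library gave 1 to 2 on day 2 and 2 to 4 on day 3. For 4-OHT in FL/FL cells it was 1 on day 1 and 3 on day 2 with no filter on low counts, and 2 on day 2 and 3 on day 3 at an adjusted p below 0.01; leaving out 1 library gave 0 to 1, 2 to 4 and 2 to 3 on days 1 to 3. For the untreated genotypes it was 0 on day 4 at an adjusted p below 0.01, and leaving out 1 library gave 0 to 1 on day 1 and 0 on day 4. For the interaction it was 1 on day 2 and 2 on day 3 with no filter, 1 on day 3 with a minimum count of 50 and 1 on day 4 at an adjusted p below 0.01; leaving out 1 library gave 0 to 1 on day 1, 0 to 1 on day 2 and 1 to 2 on day 4. For the change of the difference it was 0 from day 1 to day 2 with upper-quartile factors, with no filter or at an adjusted p below 0.01, 2 from day 2 to day 3 with no filter and 1 from day 3 to day 4 in the fit of 16 libraries; leaving out 1 library gave 0 to 1 in the first and 0 to 1 in the second. Over all tested genes, the main comparison called 104 genes on day 1 with no filter, 18 in a fit of the 4 libraries of that day and 10 with DESeq2, against 3; at an adjusted p below 0.01 it called 1246 on day 2 and 1848 on day 3, and leaving out 1 library gave 1260 to 1363 on day 2 and 1784 to 2216 on day 3. Pathway genes called on day 3 numbered 17 to 25 with 1 library left out. Leaving out a library leaves a group with 1, which is assumed to vary like the other groups. The causes of the other shifts were not tested. Scaling moved the median of all genes by -0.0493 to 0.0225 (log2).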

Other observations

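The 80 tested genes of the pathway lists were also counted in the other comparisons, whose backgrounds are given above. After 4-OHT in FL/FL cells, 0, 28, 26 and 29 of them were called higher and 0, 1, 11 and 9 lower on days 1 to 4 by edgeR. In WT/FL cells 0, 0, 1 and 2 were higher and none was lower. Between untreated genotypes none was called on days 1 to 3, and 1 was higher and 1 lower on day 4. The interaction was called for 17, 11 and 18 as higher and 2, 4 and 6 as lower on days 2 to 4, where for the 10 members it was called only for Rel and Nfkbiz on day 4. Across the days, 44 rose and 18 fell in the first step, 48 and 15 in the second, and 27 and 29 in the last. These comparisons share libraries with each other.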
